A study of Mus musculus with 6 samples.

Results

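Eph receptors and their ephrin ligands were examined in Nestin-expressing cells of the neonatal mouse cerebellum, as a set of 10 genes, the receptors *Epha3*, *Epha4*, *Epha5*, *Epha7*, *Epha8*, *Ephb1*, *Ephb2* and *Ephb3* and the ligands *Efna5* and *Efnb1*. They were found by symbol in the deposited table, all 10 of them among 19630 listed genes. The set was picked with the difference in *Epha8* between irradiated and control cells already known, so that the values of this contrast are given for the members as a description and carry no test. The 3 irradiated libraries came from Nes-CFP/+ mice of the Swiss webster strain irradiated at postnatal day 1, and the 3 control libraries from non-irradiated mice of the same genotype and strain. All were collected at postnatal day 5. In both groups cells carrying the cyan fluorescent reporter named for Nestin, a cytoskeletal protein of progenitors and glia, were sorted by flow cytometry from papain-dissociated cerebella, and polyadenylated RNA was sequenced. The labels used here give neither the radiation dose nor how many animals, of which sex, went into a library. The sort takes every cell with reporter fluorescence, so a library averages over several cell types.

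Eph receptors form a large family of receptor tyrosine kinases that are activated by ephrins on the surface of a neighbouring cell. EphA receptors mainly bind ephrin-A ligands, which are held in the membrane by a lipid anchor, whereas EphB receptors mainly bind ephrin-B ligands, which span the membrane, and signals run both into the receptor cell and back into the ligand cell. The system is known for repelling axons, keeping cell populations apart and steering migrating cells, and in the cerebellum ephrin-B signalling is known to act on the response of granule cells to chemokine.

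Values below are read counts divided by the size factor of the library, called scaled counts. Depth was 30986269 to 31070520 gene-assigned reads in irradiated libraries and 31130326 to 37067530 in control libraries. *Nes*, the gene named by the reporter, stood at 7461 to 13492 scaled counts in irradiated and 8389 to 10049 in control cells, and *Cdkn1a*, a p53 target encoding the cell cycle inhibitor p21, at 1470 to 1843 in irradiated and 235 to 402 in control cells. The sorted cells held transcripts of granule progenitors (*Atoh1*, 283 to 681 in irradiated and 144 to 324 in control libraries), of Bergmann glia (*Gdf10*, 54989 to 73327 in irradiated and 48091 to 74563 in control libraries) and of GABAergic interneuron precursors (*Pax2*, 232 to 373 in irradiated and 496 to 729 in control libraries), and no marker of the 8 cell type lists checked was at 0 in any library. Of the 9 Bergmann glia and astrocyte markers, *Gdf10* was the only 1 higher in irradiated cells on the log2 scale, while 8 were lower. Transcripts of the oligodendrocyte lineage were also present (*Pdgfra*, 10293 to 18446 in irradiated and 10532 to 17053 in control libraries). Libraries also differed in sex-linked RNA, both within and between the groups. *Xist*, the X-inactivation transcript of female cells, was at 30165, 21073 and 26.2 in irradiated replicates 1, 2 and 3, and at 31250 to 85481 in control libraries. The 4 Y-linked genes *Ddx3y*, *Eif2s3y*, *Kdm5d* and *Uty* summed to 3940, 5086 and 8911 in irradiated replicates 1, 2 and 3, against 1536, 2303 and 5094 in control replicates 1, 2 and 3. Each of the 4 was higher in irradiated cells on the log2 scale. All 4 had an unadjusted p below 0.05 in the limma-trend fit, where 4.50% of all genes tested did, and 0 passed after adjustment. *Xist* was lower in every irradiated library than in every control library. Sex makeup and irradiation can therefore not be fully told apart in these libraries. Whether each library stands for its own animals is not stated. The sex-linked values show that the libraries of a group did not all come from the same mix of animals. A p-value here covers the spread among these libraries alone, and how much of that spread lies between animals is not known.

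*Epha8* encodes a receptor that binds ephrin-A ligands and is known in the mouse from the guidance of axons of the superior colliculus. It had 564, 1601 and 2246 scaled counts in irradiated replicates 1, 2 and 3, against 212, 146 and 201 in control replicates 1, 2 and 3. Every irradiated library lay above every control library, and irradiated replicate 1 lay far below the other irradiated libraries. The means were 1470 ± 848 in irradiated and 186 ± 35.5 in control cells (SD, n = 3 each), a ratio of 7.90. Within same-numbered libraries the irradiated value was 2.66, 11.0 and 11.2 times the control value for replicates 1, 2 and 3. On the log2(scaled count + 1) scale, the irradiated minus control difference was 2.78 (SE 0.43). Each SE of a log2 difference, here and below, is from the limma-trend fit. That fit draws the spread of a gene toward that of genes of similar level. It therefore understates the spread of *Epha8*, whose own log2 values had an SD of 0.762 pooled over the groups, and of *Epha3* (0.491). A difference at least as large in either direction was present in 12 of the 16674 genes with a mean of at least 10 scaled counts. In bulk RNA, a change in the number of cells that carry a transcript and a change in the RNA per cell cannot be told apart.

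**Figure D1:**
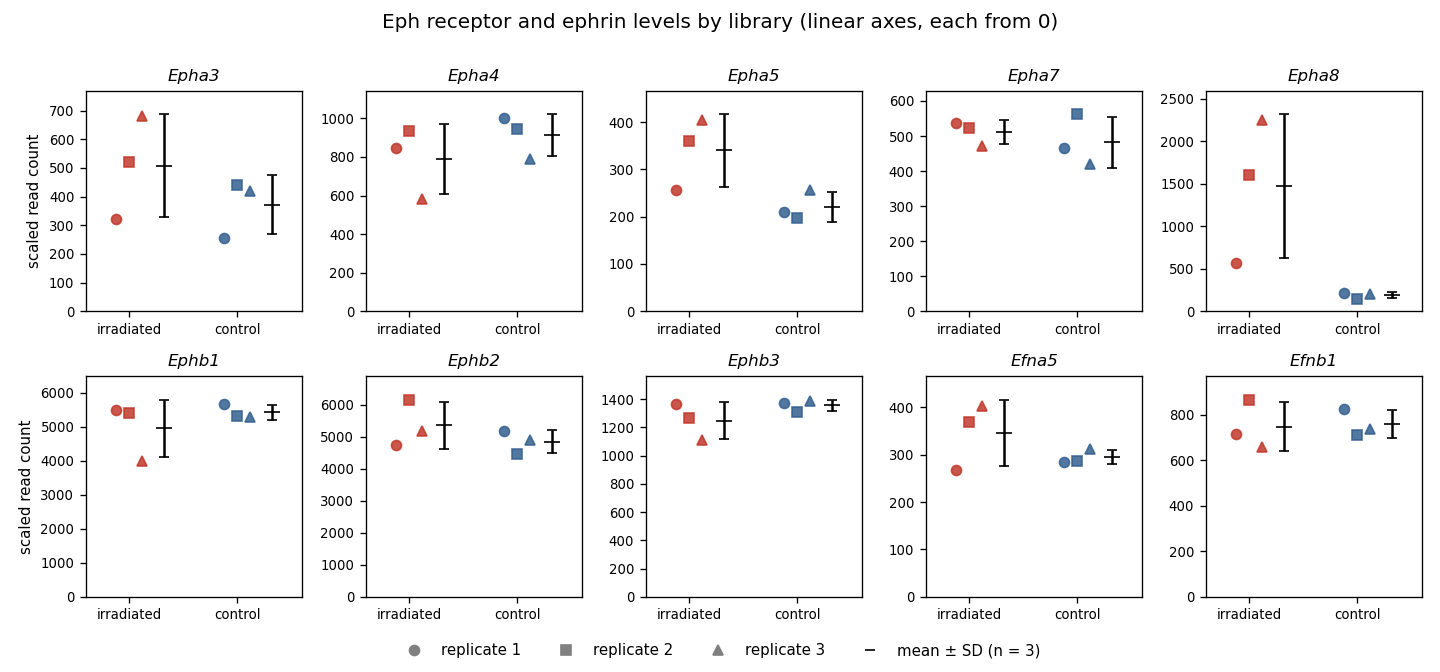
Scaled read counts of the 10 genes in each library, with irradiated libraries at the left (red) and control libraries at the right (blue) of each panel, replicates by symbol, and the mean ± SD (n = 3) in black. Epha8 had 564 to 2246 scaled counts in irradiated libraries and 146 to 212 in control libraries, and in the other 9 panels the groups overlap.

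*Epha8* (ENSMUSG00000028661.8) lies on chromosome 4 from 136929419 to 136956816 on the minus strand in GRCm38, is protein coding and overlaps no other gene in the GENCODE annotation. Its promoter window, 250 bases before to 50 bases after the RefSeq start (chr4:136956767-136957066, GRCm38.p6, minus strand), is shown as the regulatory sequence of the member with the largest difference. Beside it stand the windows of *Epha5* (chr5:84417333-84417632, minus strand), the family gene closest to it in pattern, and of *Tbata* (chr10:61171714-61172013, plus strand), the gene closest in pattern among those compared. Capitals mark matches to the motifs named after the sequences.
Epha8: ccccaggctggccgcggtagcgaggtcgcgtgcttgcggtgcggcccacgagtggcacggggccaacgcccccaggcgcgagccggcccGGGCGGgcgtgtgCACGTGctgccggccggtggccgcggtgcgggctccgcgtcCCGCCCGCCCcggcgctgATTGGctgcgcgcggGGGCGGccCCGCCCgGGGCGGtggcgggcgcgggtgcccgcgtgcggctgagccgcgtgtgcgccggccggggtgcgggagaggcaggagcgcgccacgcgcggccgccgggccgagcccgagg
Epha5: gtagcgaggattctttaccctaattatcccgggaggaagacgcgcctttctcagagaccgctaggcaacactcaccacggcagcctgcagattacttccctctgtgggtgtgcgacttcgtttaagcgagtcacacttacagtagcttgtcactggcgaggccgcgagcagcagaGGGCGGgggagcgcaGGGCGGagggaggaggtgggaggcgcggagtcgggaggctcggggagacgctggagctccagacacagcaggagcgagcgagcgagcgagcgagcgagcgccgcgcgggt
Tbata: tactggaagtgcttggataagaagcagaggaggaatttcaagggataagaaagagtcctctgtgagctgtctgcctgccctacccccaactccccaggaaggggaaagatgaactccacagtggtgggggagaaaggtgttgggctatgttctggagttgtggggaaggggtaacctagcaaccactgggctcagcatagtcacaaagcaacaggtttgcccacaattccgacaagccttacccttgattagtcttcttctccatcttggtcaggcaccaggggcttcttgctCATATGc
All 10 members had such a window in the RefSeq table, *Epha7* with a pair of them. The *Epha8* window is 84.3% G and C, the highest of the members, whose windows run from 55.7% upwards, and above 99.8% of 32851 promoter windows of the same length, whose median is 52.7%. Motifs were searched on both strands. The GC box GGGCGG matched 6 times in the *Epha8* window, between positions -161 and -59 from the start, with the matches at -107 and -103 overlapping each other. It matched 2 times in the *Epha5* window and 0 times in that of *Tbata*, and 35.7% of all windows hold it. The E-box CANNTG matched once in *Epha8*, as CACGTG at -148, and once in *Tbata*, as CATATG, and 72.3% of all windows hold it. The CCAAT box matched once in *Epha8*, at -89 on the opposite strand, as 37.4% of windows do. The TATA box TATAAA (13.6% of windows), the GLI site TGGGTGGTC (0.25%) and the p53 half-site (8.36%) had no match in the 3 windows shown. These matches describe letters in the windows and nothing more.

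Among the other EphA receptors, *Epha5* and *Epha3* were also higher in every irradiated library than in the control library of the same number. *Epha5* (ENSMUSG00000029245.16, chr5:84054761-84417382, minus strand), a receptor known from axon mapping, had 255, 360 and 404 scaled counts in irradiated replicates 1, 2 and 3, against 210, 197 and 257 in control replicates 1, 2 and 3. Irradiated replicate 1 fell just inside the range of the controls and the other irradiated libraries lay above it. The difference was 0.60 (SE 0.21) on the log2 scale. *Epha3* (ENSMUSG00000052504.6, chr16:63543534-63864175, minus strand), a receptor for ephrin-A5, had 323, 522 and 680 in irradiated replicates 1, 2 and 3, against 256, 442 and 420 in control replicates 1, 2 and 3, a log2 difference of 0.42 (SE 0.29). Here the groups overlapped, and replicate 1 was the lowest of its group in both. With the Y-linked level as a covariate the difference of *Epha3* turned to -0.131 and that of *Epha5* was 0.282. The Y-linked level was itself higher in the irradiated library of each number. A fit with this covariate therefore cannot cleanly part it from irradiation, here or for the genes below.

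*Epha4* (ENSMUSG00000026235.14, chr1:77367185-77515088, minus strand), a receptor that binds ephrins of both classes and guides axons in the spinal cord and forebrain, had 846, 933 and 584 scaled counts in irradiated replicates 1, 2 and 3, against 1001, 946 and 791 in control replicates 1, 2 and 3. It was lower in the irradiated library of each number, with a log2 difference of -0.23 (SE 0.19), which turned to 0.10 with the Y-linked covariate. *Epha7* (ENSMUSG00000028289.12, chr4:28813131-28967499, plus strand), a receptor of progenitors and growing axons, had 473 to 537 in irradiated and 419 to 562 in control libraries, so the control range enclosed the irradiated one.

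*Ephb1* and *Ephb2* had the highest scaled counts of the members, and the ratios of means of the 3 EphB receptors lay between 0.91 and 1.11. *Ephb1* (ENSMUSG00000032537.14, chr9:101922128-102354693, minus strand), a receptor known from the routing of retinal axons at the optic chiasm, had 5479, 5393 and 3986 scaled counts in irradiated replicates 1, 2 and 3, against 5678, 5322 and 5281 in control replicates 1, 2 and 3. Only irradiated replicate 3 stood apart, below all others. *Ephb2* (ENSMUSG00000028664.14, chr4:136647539-136835988, minus strand), which acts in axon guidance and at synapses, had 4736, 6163 and 5192 in irradiated replicates 1, 2 and 3, against 5189, 4462 and 4908 in control replicates 1, 2 and 3, with groups that overlapped. *Ephb3* (ENSMUSG00000005958.14, chr16:21204755-21223305, plus strand), which shares many of its roles with *Ephb2*, averaged 1248 ± 130 in irradiated and 1357 ± 39.0 in control cells (SD, n = 3 each), with irradiated replicate 3 the lowest. Log2 differences were -0.15 (SE 0.13) for *Ephb1*, 0.14 (SE 0.12) for *Ephb2* and -0.12 (SE 0.12) for *Ephb3*.

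Of the ligands, *Efna5* (ENSMUSG00000048915.12, chr17:62604184-62881317, minus strand) encodes the lipid-anchored ephrin-A5, which repels axons in topographic maps. It had 268, 369 and 402 scaled counts in irradiated replicates 1, 2 and 3, against 285, 286 and 312 in control replicates 1, 2 and 3, so irradiated replicate 1 lay below the controls and the other irradiated libraries above them. Its log2 difference was 0.21 (SE 0.18), and 8.21e-05 with the Y-linked covariate. *Efnb1* (ENSMUSG00000031217.8, chrX:99136130-99148991, plus strand), on the X chromosome, encodes the transmembrane ephrin-B1. It averaged 749 ± 106 in irradiated and 758 ± 61.6 in control cells (SD, n = 3 each), and the groups overlapped.

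**Figure D2:**
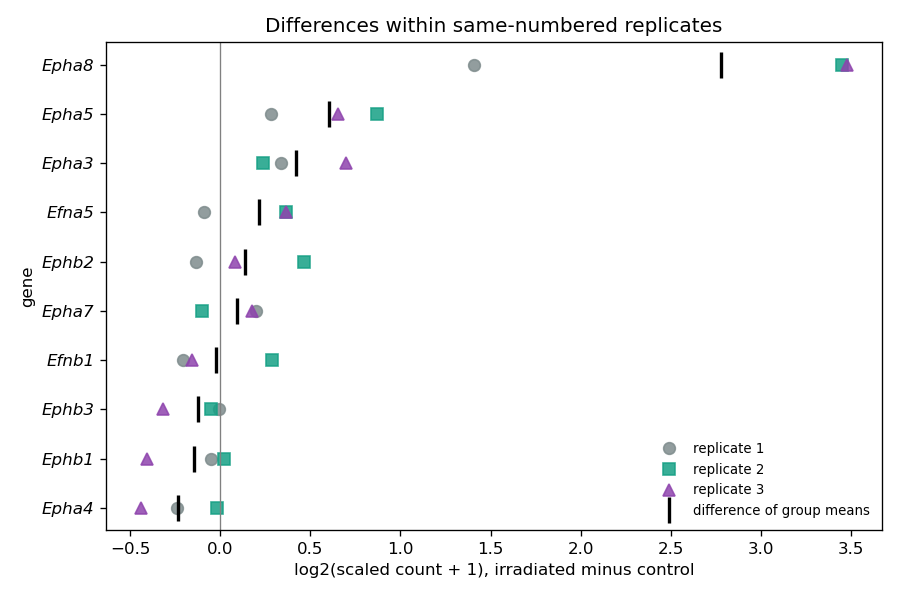
Irradiated minus control difference of log2(scaled count + 1) within same-numbered libraries (symbols by replicate number) and between the group means (black bars) for the 10 genes, one gene per line. Epha8 had pair differences of 1.41, 3.45 and 3.48, and Epha5 and Epha3 lay above 0 in all 3 pairs, whereas Epha4 and Ephb3 lay below 0 in all 3.

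Over the 10 members, 6 had a higher and 4 a lower mean level in irradiated cells on the log2 scale, with a median difference of 0.11, against a median of -0.0028 over all 16674 genes tested. The groups did not overlap for 1 member, *Epha8*, while they did not overlap for 8.83% of all genes tested in either direction. All 3 irradiated values lay above all 3 control values for 4.83% of genes. In the limma-trend fit over all genes, 0 of the 10 members had a Benjamini-Hochberg adjusted p below 0.05, where 9 genes (0.0540%) did, and 2 members, *Epha8* and *Epha5*, had an unadjusted p below 0.05, where 4.50% of genes did. With the replicate number as a block, 25 genes (0.150%) passed in limma and 0 members. Since the members were chosen on this contrast, nothing is read from these counts.

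Several of these values turned on irradiated replicate 1. Without that library, in which *Epha8* was lowest among the irradiated, its log2 difference was 3.36. *Epha8* was then 1 of 29 genes (0.174%) with an adjusted p below 0.05 in limma, a count from which nothing is read either. The irradiated and control values of 6 members then did not overlap, as was so for 19.2% of all genes. *Epha3*, *Epha5*, *Epha8*, *Ephb2* and *Efna5* were higher and *Ephb3* lower in both remaining irradiated libraries than in all controls. That library had the lowest Y-linked level of the irradiated libraries, and the highest summed level of the 9 Bergmann glia and astrocyte markers among them, 586140, against 498700 and 372170 in irradiated replicates 2 and 3 and 510010 to 632620 in the controls. A sum of scaled counts, here and below, is set mostly by its most abundant genes. These are *Slc1a3* and *Fabp7* in this list, *Zic1* and *Pax6* in the granule lineage list and *Pdgfra* in the oligodendrocyte list. Of the 9 Bergmann glia and astrocyte markers, 8 were lower in irradiated cells and 0 passed limma. An unadjusted p below 0.05 in limma was reached by 2 of them (4.50% of all genes tested). The groups did not overlap for 2 of them (8.83% of all genes). Their part in the results was not tested. *Atoh1*, the transcription factor gene of granule progenitors, had 283, 483 and 681 in irradiated replicates 1, 2 and 3 and 209, 144 and 324 in control replicates 1, 2 and 3, so that it too was lowest in replicate 1 and highest in replicate 3 of the irradiated group. This order was not particular to *Atoh1*. In irradiated replicates 1, 2 and 3 the summed oligodendrocyte lineage markers were at 18527, 24748 and 31884, and the summed microglia markers at 1682, 2313 and 2736. For both sums the groups overlapped (19116 to 29208 and 1099 to 2836 in control libraries). The Y-linked sum also rose in this order. The 9 granule lineage markers, 6 of them higher in irradiated cells, summed to 55708, 63185 and 65576 in irradiated and 58959, 55950 and 63450 in control replicates 1, 2 and 3, and the 7 Purkinje cell markers, all higher in irradiated cells, to 3278, 2653 and 3995 in irradiated and 2195, 2345 and 2750 in control replicates 1, 2 and 3. The 7 GABAergic markers, all lower, summed to 4389, 5353 and 5771 in irradiated and 4994, 6872 and 7238 in control replicates 1, 2 and 3. In limma 0 genes of the granule lineage, Purkinje and GABAergic lists passed. An unadjusted p below 0.05 was reached by 1 of the 9 granule lineage, 4 of the 7 Purkinje and 3 of the 7 GABAergic markers. The groups did not overlap for 0 of the granule lineage, 2 of the Purkinje and 2 of the GABAergic markers. The part of these cell types in the level of *Epha8* was not tested. With the Y-linked level as a covariate the log2 difference of *Epha8* was 2.23.

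*Epha8* also had the widest spread of the members within the irradiated group. Its highest irradiated library was 3.98 times its lowest, against 1.45 times in the controls. For the other 9 members this ratio ran from 1.14 (*Epha7*) to 2.11 (*Epha3*) in irradiated and from 1.05 (*Ephb3*) to 1.73 (*Epha3*) in control cells. Over the 13900 genes with a mean of at least 50, the median ratio was 1.24 in irradiated and 1.25 in control libraries, and 0.281% of genes had an irradiated ratio as large as that of *Epha8*.

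Levels of different genes were compared as scaled counts per kilobase of annotated exon. The length used joins the exons of all annotated transcripts of a gene, whether or not these cells make them, and the order depends on it. In irradiated cells the order was *Ephb1* (707 ± 120), *Ephb2* (425 ± 57.8), *Epha8* (312 ± 180), *Efnb1* (217 ± 30.8), *Ephb3* (188 ± 19.6), *Epha4* (97.8 ± 22.6), *Efna5* (85.9 ± 17.3), *Epha3* (58.5 ± 20.6), *Epha7* (51.7 ± 3.44) and *Epha5* (20.3 ± 4.57), as mean ± SD (n = 3). In control cells *Epha8* (39.5 ± 7.53) was ninth in this order, above *Epha5* (13.2 ± 1.88). Its range overlapped those of *Epha3* (42.9 ± 11.7) and *Epha7* (48.8 ± 7.37). In scaled counts not divided by length, control *Epha5* averaged 221 and control *Epha8* 186, the other way round. In irradiated cells the range of *Epha8*, 119.7 to 476.5 per kilobase, overlapped those of *Ephb2* above it and *Efnb1* below it. *Ephb1* stood above *Ephb2*, and *Ephb3* above *Epha4*, with no overlap of ranges in either group.

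The makeup of the Eph receptor RNA moved with *Epha8*. Sums and shares that include *Epha8* hold the values on which the set was chosen, so their shift is not a separate result. The 8 EphA genes listed summed to 357, 627 and 740 per kilobase in irradiated replicates 1, 2 and 3, against 278, 290 and 278 in control replicates 1, 2 and 3. Without *Epha8* these sums were 238, 288 and 264 in irradiated libraries and 234, 259 and 236 in control libraries, groups that overlap. *Epha8* made up 33.5%, 54.2% and 64.4% of the EphA sum in irradiated replicates 1, 2 and 3, against 16.1%, 10.7% and 15.3% in control replicates 1, 2 and 3. The 5 EphB genes summed to 1796, 1878 and 1470 in irradiated and 1910, 1743 and 1765 in control replicates 1, 2 and 3. The EphA share of all Eph receptor level was 16.6%, 25.0% and 33.5% in irradiated replicates 1, 2 and 3 and 12.7% to 14.3% in control libraries. Ligand sums overlapped between the groups, at 560 to 576 per kilobase for ephrin-A genes in irradiated and 546 to 620 in control libraries, and at 886 to 1286 for ephrin-B genes in irradiated and 1074 to 1365 in control libraries.

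**Figure D3:**
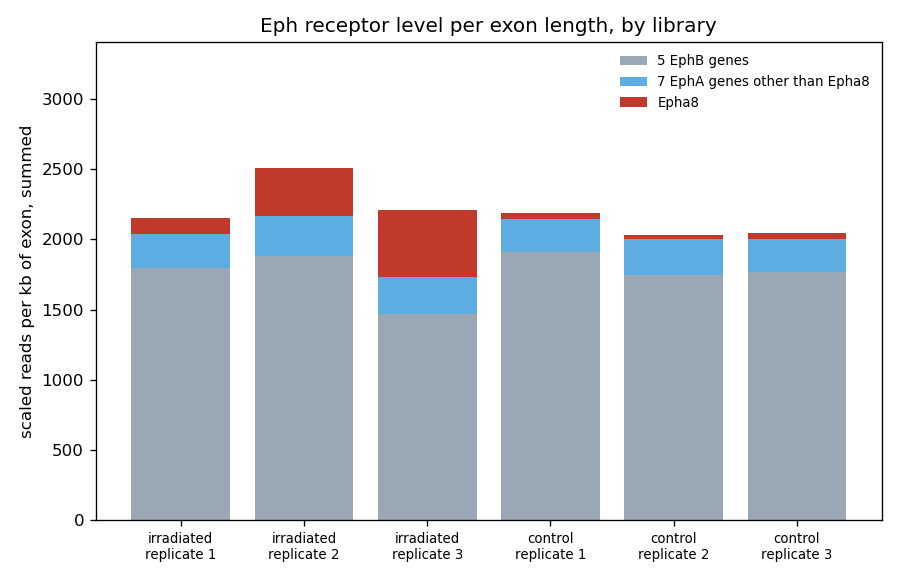
Summed level of the 13 listed Eph receptor genes per kilobase of exon in each library, with irradiated libraries left of control libraries, split into 5 EphB genes, 7 EphA genes other than Epha8, and Epha8. The Epha8 segment is 120 to 476 per kilobase in irradiated libraries and 30.9 to 45.0 in control libraries, while the segment of the other EphA genes is 238 to 288 in irradiated and 234 to 259 in control libraries.

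The family genes outside the set were compared next. *Epha1* was not analysed here. Of the 11 others tested, 4 had a higher and 7 a lower level in irradiated cells (median log2 difference -0.0422). In limma 0 of the 11 passed, 0 had an unadjusted p below 0.05, and the groups overlapped for all 11. Within same-numbered libraries, *Epha2*, *Epha6* and *Epha10* were higher in the irradiated library of all 3 pairs, the last by as little as 0.0021 on the log2 scale, and *Ephb4* was lower in all 3. With *Epha3*, *Epha5* and *Epha8*, which were chosen on this contrast, 6 of the 8 EphA genes were higher in every pair, as were 15.4% of all genes tested. Lower in every pair were 1 EphA gene and 2 of the 5 EphB genes, as were 14.4% of all genes, and 0 of the 8 ephrin genes went one way in every pair. With the replicate block 0 of the 11 passed in limma. *Efnb2*, a transmembrane ligand of arteries and neural progenitors and the most abundant ephrin gene per kilobase, averaged 3350 ± 755 in irradiated and 3484 ± 364 in control cells (SD, n = 3 each). *Ephb4*, a receptor for ephrin-B2 of veins, averaged 780 ± 171 in irradiated and 919 ± 70.6 in control cells. The 7 endothelial and pericyte markers, 6 of them lower in irradiated cells, summed to 3339 to 4859 in irradiated and 4942 to 5441 in control libraries. In limma 0 of these markers passed, and the groups did not overlap for 1 of them, where 8.83% of all genes tested did not. The part of vascular cells in these values was not tested. *Efnb3*, a midline repellent in the spinal cord, averaged 1332 ± 272 in irradiated and 1497 ± 255 in control cells. The highest log2 differences were 0.75 (SE 0.46) for *Epha6*, which had 18.8, 24.9 and 24.2 scaled counts in irradiated and 15.7, 5.91 and 22.3 in control replicates 1, 2 and 3, and 0.55 (SE 0.31) for *Epha2*, an epithelial receptor with 82.4, 123 and 151 in irradiated replicates 1, 2 and 3 and 58.8, 74.8 and 109 in control replicates 1, 2 and 3. The limma adjusted p was 0.999855 for both. Irradiated replicate 3 had the lowest value of the 6 libraries for *Ephb1*, *Ephb3*, *Ephb4*, *Ephb6*, *Efnb1*, *Efnb2* and *Efnb3*, that is for each EphB and ephrin-B gene other than *Ephb2*. *Epha4*, *Efna2* and *Efna4* were also lowest in that library, so this was not limited to EphB and ephrin-B genes. It was picked out after the values were seen. The share of all genes that were lowest in that library was not computed, so nothing is read from it. The summed Bergmann glia and astrocyte markers were lowest in the same library, and their part in these values was not tested.

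Genes that carry Eph and ephrin signals inside the cell, among them adaptors, exchange factors and small GTPases, were followed as a list of 36, of which 35 could be tested. Of these, 22 were higher and 13 lower in irradiated cells, with log2 differences from -0.52 to 0.19 and a median of 0.03. In limma 0 of the 35 passed and 1 had an unadjusted p below 0.05, where 4.50% of all genes did. The groups did not overlap for 3 of them, all lower in irradiated cells, as were 4.01% of all genes tested. These were *Ngef*, encoding the exchange factor ephexin that links EphA receptors to RhoA, the kinase gene *Src* and the kinase gene *Pak1*, picked out after their values were seen. *Ngef* had 1201, 1005 and 868 scaled counts in irradiated replicates 1, 2 and 3, against 1604, 1233 and 1553 in control replicates 1, 2 and 3 (log2 difference -0.52, limma adjusted p = 0.72). Those with the highest mean were *Cfl1*, encoding the actin-severing protein cofilin, *Cdc42*, *Rac1* and *Rhoa*, encoding small GTPases of the cytoskeleton, with log2 differences of 0.03 for *Cfl1*, -0.0033 for *Cdc42*, 0.03 for *Rac1* and 0.05 for *Rhoa*. *Anks1*, whose product binds EphA8, had 2258, 2502 and 2071 in irradiated replicates 1, 2 and 3 and 2283, 2391 and 2565 in control replicates 1, 2 and 3, with groups that overlapped. *Chn1*, encoding a GTPase-activating protein downstream of EphA4, had 574 to 791 in irradiated and 506 to 670 in control libraries.

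Of 12 genes of ephrin shedding and reverse signalling, 4 were higher and 8 lower (median log2 difference -0.022), 0 passed in limma and 1 had an unadjusted p below 0.05, where 4.50% of all genes tested did. This was *Rgs3*, encoding the protein through which ephrin-B reverse signals limit chemokine responses of cerebellar granule cells in the mouse. It had 735, 743 and 556 scaled counts in irradiated replicates 1, 2 and 3, against 773, 942 and 886 in control replicates 1, 2 and 3, and the groups did not overlap, as was so for 8.83% of all genes tested and for 1 of these 12. Its log2 difference was -0.36 (limma adjusted p = 0.999855). The most abundant were *Sdcbp*, encoding the adaptor syntenin, *Adam10* and *Adam17*, encoding membrane proteases, and *Ncstn*, encoding a subunit of gamma-secretase, with log2 differences of -0.04 for *Sdcbp*, 0.0019 for *Adam10*, -0.02 for *Adam17* and -0.11 for *Ncstn*.

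*Epha8* has family and unrelated neighbours on chromosome 4. *Ephb2* lies 93.4 kb from it, with the complement genes *C1qa*, *C1qb* and *C1qc* between them. These are expressed by microglia. *C1qa* had 327, 466 and 615 scaled counts in irradiated replicates 1, 2 and 3, against 193, 478 and 355 in control replicates 1, 2 and 3. The groups overlapped, and the 5 microglia markers summed to 1682 to 2736 in irradiated and 1099 to 2836 in control libraries. On the other side, *Zbtb40*, a zinc finger gene, averaged 537 in irradiated and 526 in control cells. Of the 5 listed genes nearest on either side, 0 passed in limma, and the log2 differences of those with a mean of at least 10 ran from -0.29 to 0.50.

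**Figure D4:**
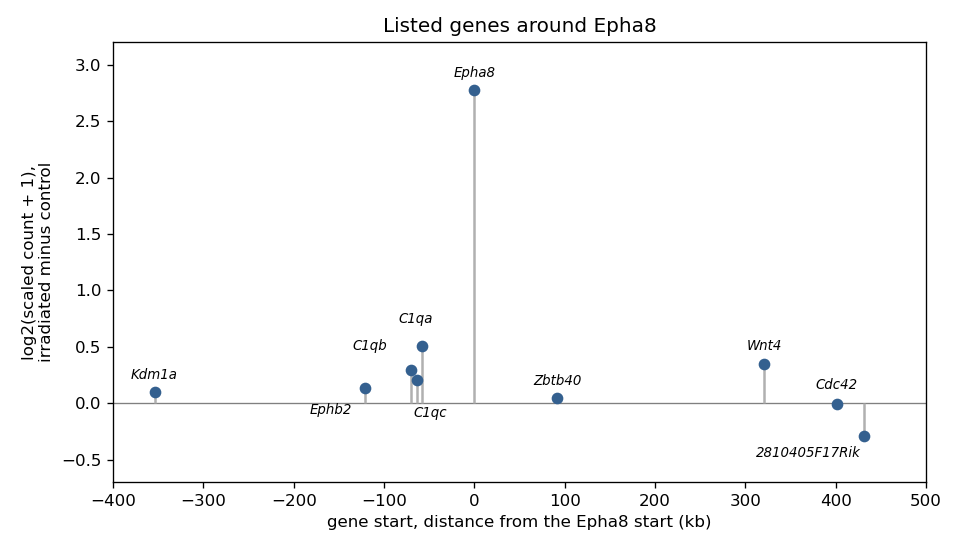
Irradiated minus control difference of log2(scaled count + 1) for Epha8 and its listed neighbours on the chromosome, plotted by the distance of each gene's start from that of Epha8 in kb (neighbours with a mean of at least 10 scaled counts). Epha8 is at 2.78 and the neighbours lie between -0.29 and 0.50.

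The pattern of *Epha8* over the 6 libraries was compared with those of 12603 other genes with a mean of at least 50, leaving out 1296 with provisional names (Gm and Rik), by the root mean square distance between log2 values centred on each gene's mean. The nearest were *Tbata* (distance 0.27), *Insm2* (0.40), *Sowaha* (0.42), *Cbln4* (0.43) and *Angptl2* (0.43), where the median gene was 1.53 away. *Tbata* had 863, 1819 and 3326 scaled counts in irradiated replicates 1, 2 and 3, against 308, 214 and 436 in control replicates 1, 2 and 3. *Angptl2*, encoding a secreted angiopoietin-like protein, had 775, 1497 and 2285 in irradiated and 386, 280 and 385 in control replicates 1, 2 and 3. In all 5 genes irradiated replicate 1 was the lowest and irradiated replicate 3 the highest of the irradiated libraries, and control replicate 2 the lowest of the controls. The nearest gene of the Eph and ephrin family was *Epha5*, at a distance of 1.17 and place 141 among the 12603. These genes were found with the same libraries that show the *Epha8* difference, so their likeness is a description.

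**Figure D5:**
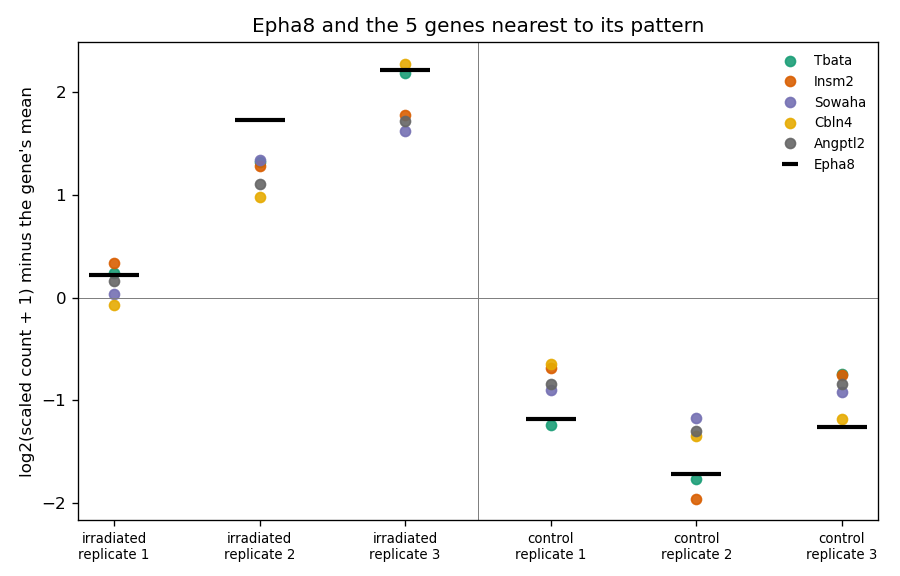
log2(scaled count + 1) minus each gene's own mean over the 6 libraries for Epha8 (black bars) and the 5 genes nearest to it (coloured points), irradiated libraries left of control libraries. Within the irradiated libraries all 6 genes are lowest in replicate 1 and highest in replicate 3, and of all libraries lowest in control replicate 2.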

How the data were processed

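The deposited table gives 1 value per gene and library, a signal scaled by the authors. Per the submitters' processing notes, HTSeq, DESeq and mm10 were used, with no version or role given. An aligner and the strandedness are not given in the sources used. From the deposited values, each signal is a read count divided by a size factor of the library (0.953 to 1.16), with 1 added. After the 1 was subtracted, 100% of values up to 2000 reads were whole multiples of 1 read within 0.01 reads. Listed genes have at least 15 reads over the 6 libraries.

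limma-trend (limma 3.58.1, R 4.3.3) was run on log2(scaled count + 1) for the 16674 genes with a mean of at least 10, with Benjamini-Hochberg adjustment, a threshold of 0.05 and 2-sided tests, and was checked on simulated data. This scale understates changes of low genes. Count-based tests and TMM scaling had been planned and were not run on these scaled values with an added 1. Members and lists were chosen with earlier results of these data known. All members are named, then in each list the genes past the threshold or else the 4 with the highest mean, and the 5 genes nearest to *Epha8* in pattern, leaving out provisional gene names. Others named, such as markers and chromosomal neighbours taken by position, were chosen with values known. Over the 16674 genes, irradiated and control libraries with the same number deviated from their group means together (r = 0.305, 0.151 and 0.451 for numbers 1, 2 and 3, against -0.342 to 0.0503 for unequal numbers). Deviations from a group mean cancel within the group, so the r for unequal numbers is tied to that for equal numbers. On this ground, and not on the labels, same-numbered libraries were compared as pairs and the replicate block was run as an alternative. The main limma fit did not use the pairs. Coordinates and exon lengths are from GENCODE M21 on GRCm38, matched by gene ID without version, which may not be the annotation counted on. *Ephb1* shares exon bases with a gene on the opposite strand, whose reads may be counted with it. The other 9 members do not. Of the family genes outside the set, *Epha6*, *Epha10*, *Ephb4*, *Efna3* and *Efna4* also share exon bases with a gene on the opposite strand. Their values carry the same limit.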

Additional observations from a re-analysis of the deposited data

How the results depend on the processing

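Fits with DESeq2, edgeR and TMM had been planned and were not run. The number of genes called, 9, was 25 with the replicate block, 19 with the Y-linked level as a covariate, and 1 to 29 when 1 library was left out (29 without irradiated replicate 1, 3 without irradiated replicate 2, and 2, 1 and 3 without control replicates 1, 2 and 3). It was 9 without a filter on low values, 9 with a pseudocount of 8, 9 with upper-quartile scaling, an alternative chosen after seeing the data, and 6 with a minimum mean of 50. The replicate block changed no call among the members, the remaining Eph and ephrin genes or the 2 signalling lists. Outside the members, none of these genes passed under any of the 12 alternatives run. The log2 difference of *Epha8* was lowest at 2.23, with the Y-linked covariate, and highest at 3.36, without irradiated replicate 1. The number of members whose groups do not overlap was 1 to 6 when 1 library was left out (6 without irradiated replicate 1, 3 without control replicate 2 and 3 without control replicate 3). Over all genes tested the share without overlap rose as well, from 8.83% to 19.2% without irradiated replicate 1. It was not computed for the other libraries left out, so nothing is read from these counts. Over the 12 alternatives the log2 differences of *Epha5* and *Epha8* were 0.28 or more. Those of *Ephb2* fell as low as 0.0337, without irradiated replicate 2, and those of *Efna5* to 8.21e-05, with the Y-linked covariate, which leaves next to no difference. That covariate differed with irradiation itself, so it may take up part of the contrast. *Ephb3* was below 0 in each, while *Epha3*, *Epha4*, *Epha7*, *Ephb1* and *Efnb1* changed sign under at least 1. The lowest value of any member in any library was 146 scaled counts, for *Epha8* in control replicate 2. Whether depth limited the members was not tested.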
